A study of Homo sapiens with 19 samples.

Results

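CD44 codes for a transmembrane receptor of hyaluronan, and its transcripts differ by a block of consecutive exons in the middle of the gene that can be included or skipped. The splicing tables of an epithelial-mesenchymal transition (EMT) experiment were searched for every event assigned to CD44. This gave 425 of the 218798 rows in 15 tables, or 195 of 100238 distinct events; 112 of the distinct events were skipped exon (SE) events, and 55 of these stood in the tables of all 3 comparisons. The events were taken by gene name alone, but CD44 itself was chosen with earlier results of these data known.

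The cells were HMLE/Twist-ER cells, a TERT-immortalized human mammary epithelial line that carries the transcription factor Twist fused to the estrogen receptor, so that tamoxifen switches Twist on. Untreated cells were in the epithelial state (EPI) and cells kept in 20 nM tamoxifen until they looked mesenchymal were in the mesenchymal state (MES). Within each state, cells stably expressed either a non-specific shRNA (control) or an shRNA against AKAP8, an RNA-binding splicing regulator (shAKAP8). Poly(A) RNA was sequenced from 3 EPI control, 3 EPI shAKAP8, 3 MES control and 2 MES shAKAP8 libraries, and AKAP8 binding was mapped by eCLIP from 2 immunoprecipitates and 2 inputs per state. The methods of the study call the RNA-seq libraries biological replicates, and the p-values below rest on the spread between these libraries. In the tests over all events or all genes, this spread was moderated across them. Very small p-values of splicing events therefore also reflect read counts and the spread of other events. Junction reads summed over the SE events of a table came to 31258177 to 40852217 per library. A junction enters this sum once for every event that holds it.

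The standard form, CD44s, joins constant exon c5 directly to constant exon c16 and holds no variable exon. Variant forms, CD44v, hold runs of the variable exons, which code for stretches of the extracellular stem of the receptor. Epithelial cells are known for CD44v and mesenchymal cells for CD44s, and the epithelial proteins ESRP1 and ESRP2 are known to promote inclusion of the variable exons, whereas HNRNPM is known to promote their skipping.

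CD44 lies on the plus strand of chromosome 11 (GRCh37, chr11:35160429-35253949). The annotated transcript with the most exons has 18, of which 9 are variable and are called v2 to v10 here. They lie between chr11:35218293-35218421 (v2) and chr11:35232793-35232996 (v10), over 14704 bases. All 9 are coding exons in the variant transcripts, their lengths run from 90 nt (v9) to 204 nt (v10), and each length is a multiple of 3, so any of them can be left out without shifting the reading frame. Their summed length is 1143 nt.

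The choice made at the end of c5 decides which form a transcript becomes, so the junctions that carry most of the results are shown here as the last 15 bases of c5 (chr11:35211598-35211612) in lower case and the first 15 bases of the exon joined to it in capitals, 5′ to 3′ on the plus strand of GRCh37. The exon starts are chr11:35219668-35219682 for v3, chr11:35222629-35222643 for v4, chr11:35226059-35226073 for v6, chr11:35229652-35229666 for v8, chr11:35232793-35232807 for v10 and chr11:35236399-35236413 for c16.
c5 to v3: gaatccctgctaccaGTACGTCTTCAAATA
c5 to v4: gaatccctgctaccaTTTCAACCACACCAC
c5 to v6: gaatccctgctaccaTCCAGGCAACTCCTA
c5 to v8: gaatccctgctaccaATATGGACTCCAGTC
c5 to v10: gaatccctgctaccaATAGGAATGATGTCA
c5 to c16: gaatccctgctaccaGAGACCAAGACACAT

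Reads that leave c5 were counted for each exon reached. Each SE event gives the reads of the junction that skips the exon and the sum of the reads of the 2 junctions that include it, so the reads of each junction could be solved for every library from the overlapping events. A skipping junction had the same count in every event that holds it, and the solved counts missed a deposited inclusion sum by at most 4.25 reads. A library had 3067 to 6018 reads leaving c5.

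CD44s was the minor form in the epithelial state and the major form in the mesenchymal state. The junction c5 to c16 took 7.64%, 7.4% and 7.73% of the reads leaving c5 in the 3 EPI controls and 81%, 79.2% and 80.9% in the 3 MES controls. The groups were far apart, with means of 7.59% ± 0.17 (SD, n = 3) and 80.4% ± 1.02 (SD, n = 3). In the AKAP8 knockdown cells the shares were 8.26%, 12.2% and 10.4% in EPI and 88.9% and 84.5% in MES. Averaged over control and knockdown cells, the difference between the states was 74.58 percentage points (exact permutation of libraries within controls and within knockdown cells, two-sided p = 0.005, the smallest that its 200 arrangements can give).

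The first variable exon joined to c5 was most often v3 in the epithelial state. It took 62.1%, 56.9% and 59.5% of the reads leaving c5 in EPI controls, against 7.04%, 7.85% and 8.97% in MES controls. In EPI controls v4 followed with 9.5% ± 0.251, v6 with 8.25% ± 0.712, v2 with 7.46% ± 2.1 and v8 with 5.88% ± 0.717 (SD, n = 3 each). The spread of v2, from 6.11% to 9.88%, overlapped those of its neighbours v4, v6 and v8 in this order, whereas v4, v6 and v8 did not overlap each other. Direct joins to v7, v9 and v10 were each below 1% on average, and a direct join to v5 was seen in 0 to 2 reads per EPI control library. None of the 5 MES libraries had a read from c5 to v5, which allows a share of up to 0.0978% in the library with the fewest reads (3 reads of the total, which covers counting error only).

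Among the transcripts that still entered the variable block, the entry point moved downstream in the mesenchymal state. Of the reads from c5 into any variable exon, v3 took 64.4% ± 2.93 in EPI controls and 40.6% ± 5.55 in MES controls (SD, n = 3 each). The join to v6 rose from 8.93% ± 0.756 to 21.3% ± 1.58 and that to v10 from 0.844% ± 0.257 to 19.5% ± 5.49. The v10 shares were 0.896%, 0.565% and 1.07% in EPI controls and 19.7%, 24.8% and 13.8% in MES controls, and they did not overlap. In the same permutation within controls and within knockdown cells, the differences were 11.03 points for v6 and 22.38 points for v10 (exact two-sided p = 0.005 each), against -0.64 points for v8 (exact two-sided p = 0.545). These p-values are not adjusted over the exons, whose shares sum to the whole and so depend on each other. In reads, the join of c5 to v10 counted 31, 26 and 45 in the EPI controls and 120, 206 and 81 in the MES controls, so it also rose as a share of everything that leaves c5, by 2.55 points (exact two-sided p = 0.01), whereas the changes of the joins to v3, v4, v6 and v8 on that scale were -50.52, -7.78, -5.35 and -6.63 points (exact two-sided p = 0.005 each).

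**Figure D1:**
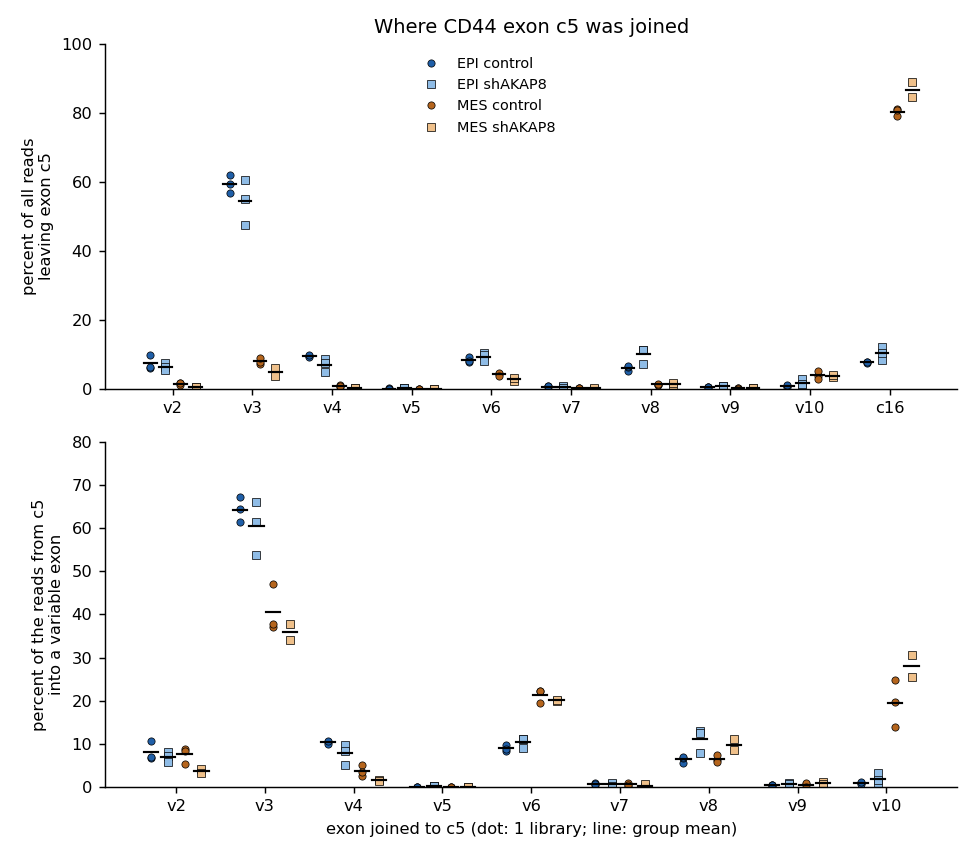
Exon joined to constant exon c5 of CD44 in each of the 11 libraries, as a percent of all reads leaving c5 (upper) and of the reads from c5 into a variable exon (lower). Dots are libraries and lines are group means. In the upper plot the MES libraries lie at 79.2% or more at c16, and in the lower plot the MES libraries lie above all EPI libraries at v6 and v10 and below them at v3.

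Once inside the block, transcripts ran through it. In EPI controls the share of reads leaving an exon that joined the next exon was 98.3% ± 0.216 for v3, 99.1% ± 0.0416 for v4, 99.4% ± 0.109 for v5, 99.5% ± 0.138 for v6, 99.2% ± 0.105 for v8 and 99% ± 0.371 for v9 (SD, n = 3 each). In MES controls v3 ran on to v4 in 83.1%, 87.5% and 91.2% of its reads, and joined c16 directly in 11.4%, 8.51% and 5.35%. In MES shAKAP8 cells v3 joined v4 in 71.1% and 82.2% of its reads and c16 in 20.8% and 13.6%. The change between the states in the share of v3 reads that joined v4 was -15.92 points (exact permutation within controls and within knockdown cells, two-sided p = 0.005). The 5 MES libraries all lay below the 6 EPI libraries. For v5, v6, v7 and v9 the changes of this share were smaller, from -1.95 to -3.82 points (exact two-sided p = 0.005 each). These values rest on few mesenchymal reads, since 173 to 376 reads left v3 in a MES library, against 2459 or more in an EPI library.

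The join of v7 to c16 varied among the MES controls. It took 27 of 330 reads leaving v7 in the first control, 45 of 571 in the next and 2 of 435 in the last, and 4 of 156 and 1 of 211 in the MES shAKAP8 libraries. At most 1 read of this kind was seen in any EPI library.

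**Figure D2:**
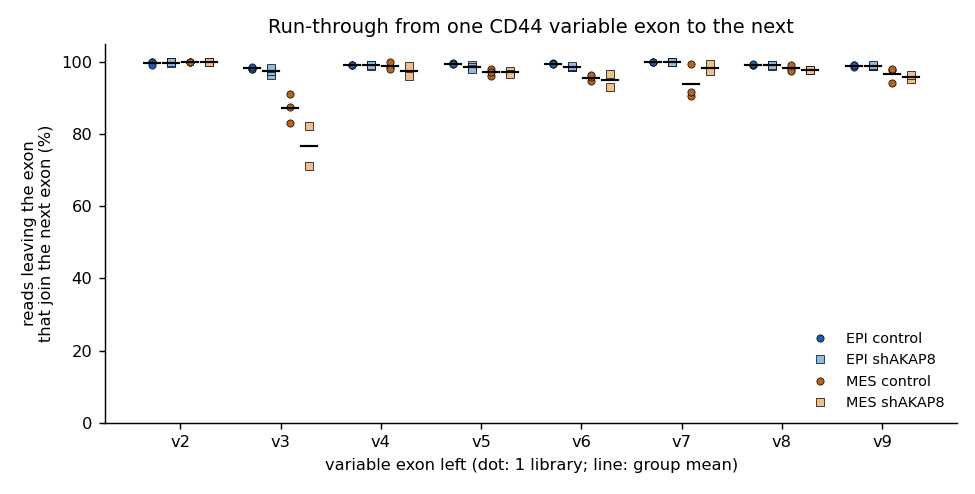
Percent of the reads leaving each CD44 variable exon that joined the next exon downstream, for v2 to v9 in each library (dots) with group means (lines). All EPI values are 96.5% or higher, and v3 in the 5 MES libraries lies between 71.1% and 91.2%.

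For each exon, percent spliced in (PSI) was also computed over all junctions, with the mean of the reads into and out of the exon as inclusion and every junction that jumps it as skipping. In EPI controls v2 was the least included exon, at 5.86%, 8.97% and 6%. Inclusion then rose along the gene in steps. The means were 67.1% ± 1.03 for v3, 74.8% ± 1.39 for v4, 73.4% ± 1.74 for v5, 82.3% ± 0.961 for v6, 83.8% ± 1.12 for v7, 91.5% ± 0.258 for v8, 91.9% ± 0.324 for v9 and 92.1% ± 0.711 for v10 (SD, n = 3 each). The ranges of v4 and v5 overlapped, as did those of v6 and v7 and those of v8, v9 and v10, and the steps between these sets were free of overlap.

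In MES controls the same measure was 1.21% ± 0.159 for v2, between 8.61% ± 1.7 (v4) and 13.1% ± 2.34 (v8) for v3 to v9, and 17.2% ± 2.41 for v10 (SD, n = 3 each). The highest level was that of v10, but its lowest library, at 14.4%, lay inside the range of v8, which ran from 10.6% to 15.1%. The change between the states, averaged over control and knockdown cells, was -5.57 points for v2 and ran from -56.97 points (v3) to -80.09 points (v9) for the others, and all 9 exons gave the smallest p the arrangements allow (exact two-sided p = 0.005 each, not adjusted over exons that share reads).

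**Figure D3:**
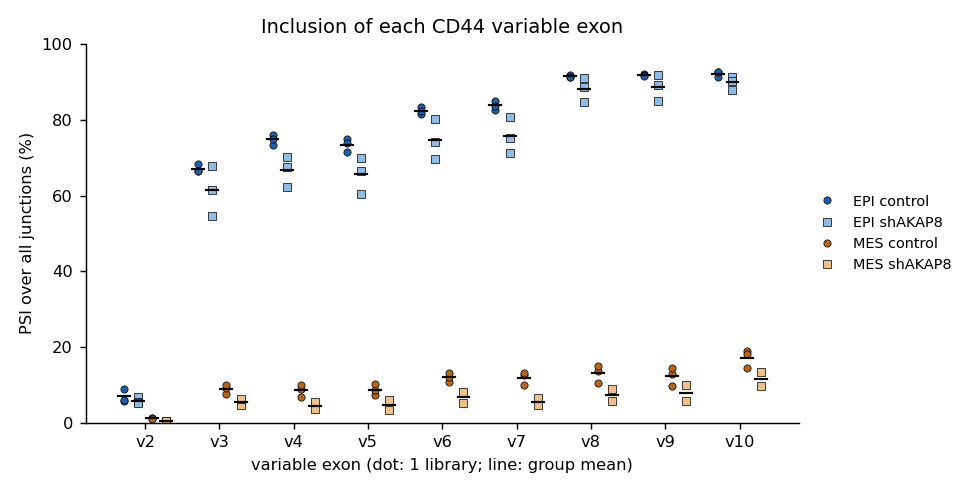
PSI over all junctions of the 9 CD44 variable exons in each of the 11 libraries (dots) with group means (lines). EPI levels step up from v3 to v10, MES levels stay below 20%, and shAKAP8 libraries lie on average below the controls of their state.

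The test run over the whole SE table, a quasi-binomial test of inclusion against skipping reads, called an event at a Benjamini-Hochberg adjusted p under 0.05 and a PSI change (∆PSI) of at least 0.1. Of the CD44 SE events in the tables, 86 of 93 for the 2 states, 92 of 99 for the EPI knockdown and 57 of 66 for the MES knockdown had the mean of 20 junction reads per library needed for the test. Between EPI and MES controls the test called 22 of the 86, all lower in MES. Over all genes 668 of 49330 SE events were called, or 1.35%, and 0.602% were called lower. The CD44 events overlap and share junctions, so the 22 are not separate observations. The called events were 6 of v8, 4 of v4, 4 of v9, 3 of v3 and 1 each of v2, v5, v5 with 3 additional bases, v7 and v10; none was of v6.

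Between the constant exons c5 and c16, v10 gave the widest change among the events of this kind. Inclusion in such an event counts only reads that join the exon directly to c5 or to c16, so exons inside the block read low. For v8 the values lie far below its PSI over all junctions, the measure on which v9 changed most. The PSI of v10 between c5 and c16 was 87.8%, 86.2% and 88.1% in EPI controls and 10.6%, 13.6% and 12.2% in MES controls. For v3 between c5 and c16 it was 80.3%, 79.4% and 79.4% against 4.6%, 5.18% and 5.56%, and for v8 it was 26.4%, 30.2% and 30.3% against 0.763%, 0.754% and 0.919%. The 3 events were called in the control cells and again in the knockdown libraries, which share no library with the controls (quasi-binomial test with Benjamini-Hochberg adjustment, adjusted p = 2.6e-95 or less in the knockdown cells). In knockdown cells the test called 12 of 55 CD44 SE events, all lower in MES, against 1.29% of all SE events and 0.683% called lower.

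Seen from v10, the exons before it were also left out more often in the mesenchymal state. For v9 between c5 and v10, mean PSI was 98.6% in EPI and 61.5% in MES controls, and for v8 between the same exons it was 80.3% and 16.1% (quasi-binomial test with Benjamini-Hochberg adjustment, adjusted p = 4.9e-89 and 4e-38). Both share the skipping junction c5 to v10, whose reads rose as given above. At the 3′ end of the block, v10 supplied 91.9% ± 1 of the reads arriving at c16 in EPI controls and 18.2% ± 2.2 in MES controls (SD, n = 3 each), with 89.6% ± 1.42 and 11.3% ± 1.63 in shAKAP8 cells (SD, n = 3 and n = 2).

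Events between neighbouring variable exons moved little. The SE event with the most reads for each exon was usually of this kind, such as v7 between v6 and v8 with 99.7% ± 0.145 in EPI and 98.5% ± 0.756 in MES controls, and v9 between v8 and v10 with 99.6% ± 0.0417 and 98.8% ± 1.13 (SD, n = 3 each). None of the 9 events with the most reads was called between the states in control cells (quasi-binomial test with Benjamini-Hochberg adjustment, adjusted p from 0.13 to 0.77). Such an event counts only transcripts that already hold both neighbours, and it therefore shows the run-through described above rather than the share of CD44 mRNA with the exon.

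Among mutually exclusive exon events, 5 of 58 were called between the states in control cells (2.11% of all such events). For v7 against v8 between c5 and c16, the mean share of v7 was 9.2% in EPI and 34.5% in MES controls (quasi-binomial test with Benjamini-Hochberg adjustment, adjusted p = 0.00017). It was 11.6%, 7.27% and 8.66% in the EPI controls but 41.2%, 52.5% and 9.8% in the MES controls, where 28, 53 and 5 reads of v7 stood against 40, 48 and 46 of v8. The last MES control thus lay inside the EPI range, and the MES shAKAP8 libraries had 11.1% and 6.15% (4 reads of v7 each), so the change of the mean rests on 2 of the 5 MES libraries. For v4 against v8, the share of v4 was 63.5%, 59.1% and 59.2% in EPI controls and 45.9%, 29.4% and 31.3% in MES controls, without overlap (adjusted p = 0.0011 in the same quasi-binomial test). For v5 against v8, the share of v5 was 1.44%, 1.24% and 0.326% against 20%, 11.1% and 13.2%, with 6 to 10 reads of v5 in a MES control (adjusted p = 0.00025 in the same test). In MES controls these v5 reads were all joins of v5 to c16, whereas 38, 47 and 43 of the v8 reads were joins of c5 to v8. Of the v7 reads, 27, 45 and 2 were joins of v7 to c16. The events of v5 and v7 thus do not show these exons used in place of v8. The other 2 called events set the constant exon c4 against c5 and c16 against c17. Each holds the junction c5 to c16 in 1 of its forms, and the SE events of these exons had a mean PSI of 99.9% or more in both control groups. The 2 calls therefore do not show that a constant exon was left out. In knockdown cells 2 of 25 were called (0.661% of all such events), and these were the same 2 events of constant exons. The events of v4 and of v5 against v8 were not tested there, because neither was listed for both knockdown comparisons. After AKAP8 knockdown 0 of 70 were called in EPI and 0 of 35 in MES, where 0.0261% and 0.0101% of all such events were called. Alternative 3′ splice sites of CD44 gave at most 2 events per comparison, and the tables held no CD44 event of alternative 5′ splice sites or retained introns.

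**Figure D4:**
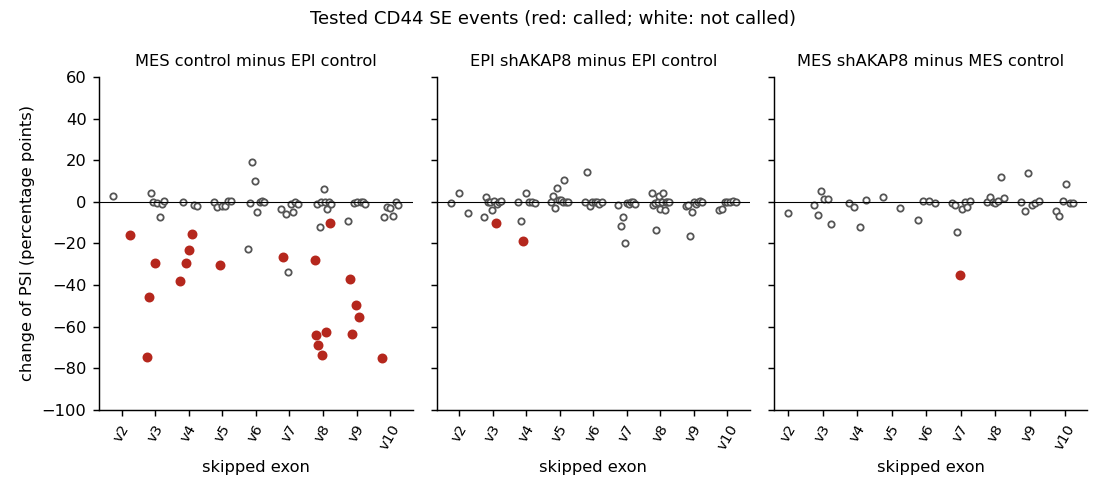
Change of PSI of every tested SE event of v2 to v10 in the 3 comparisons that the tables were made for, by skipped exon. Red dots are called events, all of them below 0, and white dots are not called; v5 with its 3 additional bases and constant exons are not drawn.

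AKAP8 knockdown cells had more of the standard form in both states, by a small amount. Over the whole SE table the knockdown called few events in any gene, 0.0525% in EPI (0.0294% lower in shAKAP8 cells) and 0.0479% in MES (0.0365% lower). The c5 to c16 share of every EPI shAKAP8 library (8.26%, 12.2% and 10.4%) was above that of every EPI control, and both MES shAKAP8 libraries (88.9% and 84.5%) were above every MES control. The mean difference was 2.7 points in EPI (exact permutation test, two-sided p = 0.1, the smallest that 3 against 3 libraries can give) and 6.32 points in MES with all 3 controls (exact permutation test, two-sided p = 0.1, again the smallest possible). Permuting the libraries within both states together, the average difference was 4.51 points (exact two-sided p = 0.005, the smallest of 200 arrangements). This joint test was chosen after the reads had been seen, and it is 1 of 10 exons reached from c5 that were tested in this way. The permutations of knockdown against control, here and below, treat the libraries of a state as exchangeable and ignore their place in the lists. In EPI, gene levels of control and shAKAP8 libraries of the same place deviated together, and a permutation within such pairs was not run.

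Joins of c5 to v3 and v4 were fewer. The share of reads leaving c5 that joined v4 was 9.5%, 9.25% and 9.75% in EPI controls and 4.73%, 8.61% and 7.53% in EPI shAKAP8 cells, and 0.965%, 0.502% and 0.652% in MES controls and 0.185% and 0.206% in MES shAKAP8 cells. It was lower in every knockdown library than in every control of its state, with an average difference of -1.53 points (exact permutation within both states, two-sided p = 0.01). For v3 the average difference was -4.16 points (exact two-sided p = 0.05), and the first EPI shAKAP8 library, at 60.6%, lay inside the range of the controls.

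The join of c5 to v8 went the other way. Of the reads from c5 into a variable exon, v8 took 5.49%, 6.62% and 6.98% in EPI controls and 7.92%, 12.9% and 12.6% in EPI shAKAP8 cells. In the MES state it took 6.24%, 5.66% and 7.35% in controls and 8.6% and 11% in shAKAP8 cells. All 5 knockdown libraries were above the controls of their state, by 4.09 points on average (exact permutation within both states, two-sided p = 0.005). As a share of everything that leaves c5, v8 took 5.88% ± 0.717 in EPI controls and 9.96% ± 2.34 in EPI shAKAP8 cells, without overlap. In MES it took 1.25% ± 0.128 in controls and 1.33% ± 0.532 in shAKAP8 cells, which overlapped (SD, n = 3, and n = 2 for MES shAKAP8). The average difference on that scale was 2.08 points (exact permutation within both states, two-sided p = 0.04).

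Exons v4 to v8 were included less in shAKAP8 cells. In EPI, PSI over all junctions of v7 was 84.9%, 82.7% and 83.7% in controls and 80.7%, 71.1% and 75.2% in shAKAP8 cells, and in MES it was 9.89%, 12.5% and 13.1% against 4.65% and 6.49%. The average difference for v7 was -7.19 points (exact permutation within both states, two-sided p = 0.005). For v6 it was -6.52 points and for v5 -5.94 points with the same p, and for v4 -6.12 points and for v8 -4.57 points (exact two-sided p = 0.01 each). For v4 to v8, each of the 5 knockdown libraries was below every control of its state. The differences were -4.59 points for v3, -3.93 points for v10, -3.88 points for v9 and -0.91 points for v2 (exact two-sided p = 0.03, 0.02, 0.045 and 0.105), and v2, v3, v9 and v10 overlapped the controls in at least 1 library. The second EPI shAKAP8 library had the lowest PSI of its group for v3 to v10 and also the most reads leaving c5 of all libraries, 6018; the part of depth in this was not tested.

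Tested over the whole table, few CD44 events passed after knockdown. In EPI, 2 of 92 tested SE events were called, both lower in shAKAP8 cells, against 25 of 47579 over all genes (0.0525%, with 0.0294% lower). They were v3 and v4, each between c5 and v8. Both share the skipping junction c5 to v8, so they are not separate observations. Its reads were 190, 305 and 293 in controls and 261, 682 and 438 in shAKAP8 cells. The v4 event mostly sets joins of c5 to v4 against joins of c5 to v8, since v4 to v8 had at most 6 reads in a library. It does not give the share of CD44 mRNA with v4. For v4 between c5 and v8, PSI was 48.5%, 43.1% and 43.2% in controls and 24.7%, 27.8% and 25.4% in shAKAP8 cells (quasi-binomial test with Benjamini-Hochberg adjustment, adjusted p = 0.00023). For v3 it was 86.1%, 82.4% and 82.3% against 80.9%, 68.1% and 71.1% (adjusted p = 5.5e-05 in the same quasi-binomial test). Neither call was made by limma on the logit of PSI, which called 0 of 92, or without the first EPI control. For v7 between c5 and v8, mean PSI was 88.4% in controls and 81% in shAKAP8 cells (adjusted p = 0.00017 in the quasi-binomial test). This event shares the skipping junction c5 to v8. For v7 between v6 and v8 it was 99.7% and 98.9% (adjusted p = 0.024 in the same test). The changes of both v7 events were under the size needed for a call.

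In MES, 1 of 57 tested SE events was called, lower in shAKAP8 cells, against 21 of 43832 over all genes (0.0479%, with 0.0365% lower). This was v7 between v3 and c16, with PSI of 36.7% and 42.3% in the 2 controls that the table of this comparison holds and 6.49% and 1.69% in the shAKAP8 libraries (quasi-binomial test with Benjamini-Hochberg adjustment, adjusted p = 0.013). The last MES control, which only the table of the 2 states holds, had 15%. The inclusion reads were 29, 47 and 6 in the controls and 5 and 1 in the shAKAP8 libraries, and no call was made when any library of the comparison was left out or by limma on the logit of PSI. For v10 between c5 and c16, ∆PSI was -4.2 points in MES (adjusted p = 0.016 in the quasi-binomial test) and -3.9 points in EPI (adjusted p = 0.5), both under the size needed for a call. The 2 states were compared directly for the knockdown effect, and 0 of 55 CD44 SE events were called, with 2 at an unadjusted p under 0.05 in the quasi-binomial test and 0 called by limma on the logit of PSI, against 0.00993% of all SE events called.

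At v5, reads from v4 ended at either of 2 acceptors 3 bases apart. The genome sequence chr11:35223200-35223229 is shown because both acceptors follow a CAG there, with the 3 bases that only the upstream acceptor keeps in capitals.
v5 acceptors: taaccatcatcacagCAGatgtagacagaa
The upstream acceptor took 53%, 53.2% and 48.2% of the v4 to v5 reads in EPI controls and 48.8%, 51.6% and 55.1% in MES controls. The group means were 51.5% ± 2.83 and 51.8% ± 3.14 (SD, n = 3 each), and 50.3% ± 0.358 and 52.8% ± 1.93 in EPI and MES shAKAP8 cells (SD, n = 3 and n = 2). The ranges overlapped across the states, while PSI of v5 over both acceptors fell from 73.4% to 8.73%.

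The introns beside the variable exons were searched for the letters TGGTGG, a GU-rich motif known for ESRP proteins, on the strand of the transcript within 250 bases on each side. HNRNPM is also known to bind GU-rich sequences downstream of v8, in competition with ESRP1, so a match does not tell which protein binds. The motif was present downstream of v8 and v9 and upstream of v10, and 6 matches were found in all, of which some overlap. Of the 52719 SE exons in the tables, 12.7% had a match in the downstream window and 10.9% in the upstream window. The matches nearest to v8 and v9 start 84 and 76 bases after the exon, and are shown with the motif in capitals (GRCh37, chr11:35229825-35229854 and chr11:35231665-35231694).
v8 downstream: gatgcagagcttTGGTGGtggaatggtgct
v9 downstream: ttgcagtgtcttTGGTGGaggtgcatccat

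The level of CD44 was read as its junction reads summed over SE events that stood in the tables of all 3 comparisons, scaled by library. EPI controls had 159860, 197994 and 212101 scaled reads, EPI shAKAP8 cells 150188, 242015 and 176160, MES controls 62157, 82789 and 67006, and MES shAKAP8 cells 55581 and 63358. Across all genes, limma with Benjamini-Hochberg adjustment gave a log2 fold change of -1.43 ± 0.20 (SE) between the control states (adjusted p = 0.00022), where 12.5% of 9014 genes passed the cutoffs of 1 and 0.05. Events of the variable region hold most of these reads, and inclusion enters their sum. From events outside the region alone, EPI controls had 36823, 45679 and 48407 scaled reads and MES controls 27700, 34948 and 27780, and the log2 fold change was -0.53 ± 0.20 (SE, limma adjusted p = 0.065), which did not pass. Knockdown changed the level by -0.02 ± 0.20 in EPI and -0.24 ± 0.22 in MES on the log2 scale (limma adjusted p = 0.99 and 0.56), where 0.189% and 2.27% of genes passed. In knockdown cells the change between the states was -1.65 ± 0.22 (SE, limma adjusted p = 0.00019), where 12.3% of genes passed. This sum again includes the variable region. From events outside it, EPI shAKAP8 cells had 34538, 58449 and 41311 scaled reads and MES shAKAP8 cells 25153 and 27855. No fold change is given for these. In bulk RNA, fewer cells with CD44 and less CD44 RNA per cell cannot be told apart.

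**Figure D5:**
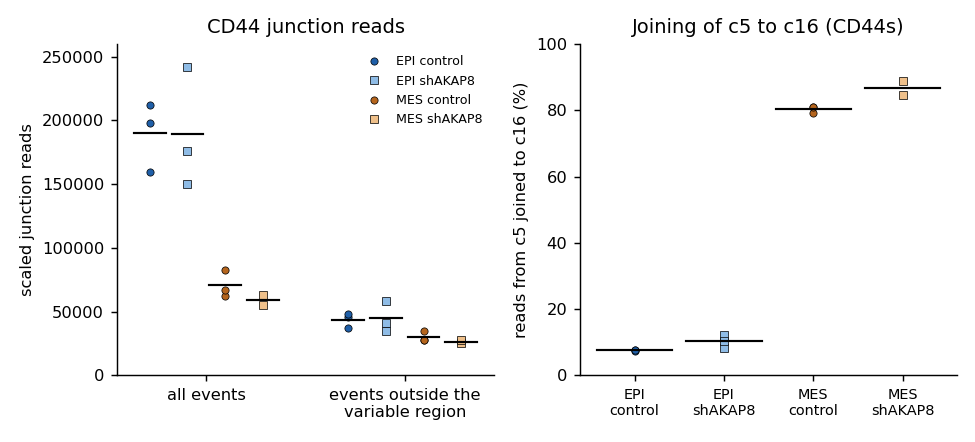
Left, scaled junction reads of CD44 from all SE events and from events outside the variable region; right, percent of the reads leaving c5 that joined c16. Dots are libraries and lines are group means; over all events the 5 MES libraries lie below the EPI libraries, outside the variable region the highest MES control (34948) lies just above the lowest EPI shAKAP8 library (34538), and on the right the MES libraries are at 79.2% or more.

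AKAP8 itself was lower in the knockdown libraries. Its sum was 244, 310 and 245 scaled junction reads in EPI controls and 121, 98.8 and 125 in EPI shAKAP8 cells, and 382, 196 and 248 in MES controls and 108 and 122 in MES shAKAP8 cells, without overlap within a state. Its log2 fold change was -1.20 in both states (limma adjusted p = 0.066 in EPI and 0.032 in MES), and in EPI the adjusted p was 0.0096 when the place of a library in the list of its group was a block in limma. Of 10 listed epithelial marker genes 4 were tested, and all 4 fell between the control states; of 10 listed mesenchymal marker genes 8 were tested, and all 8 rose. Over all genes 7.16% fell and 5.38% rose.

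Of 30 listed regulators of CD44 splicing, 25 were tested, and 2 fell and 2 rose between the control states, against 7.16% of all genes that fell and 5.38% that rose. The 4 of 25 are thus close in share to the 12.5% of all genes that passed. ESRP1 counted 3207, 3158 and 3658 scaled reads in EPI controls and 118, 243 and 282 in MES controls, and ESRP2 852, 880 and 658 against 67.6, 70.4 and 75.9. The log2 fold changes were -4.05 ± 0.26 and -3.45 ± 0.20 (SE, limma adjusted p = 3.4e-07 and 1.8e-07). KHDRBS3 and QKI, further RNA-binding splicing regulators, rose by 4.02 ± 0.28 and 1.06 ± 0.18 on the log2 scale (SE, limma adjusted p = 6.2e-07 and 8e-04). HNRNPM was at 10351 ± 1415 scaled reads in EPI and 16814 ± 1602 in MES controls (SD, n = 3 each), a log2 fold change of 0.70 ± 0.17 (SE, limma adjusted p = 0.0079) that is under the cutoff of 1. After knockdown, no regulator but AKAP8 passed in MES and none in EPI, where 2.27% and 0.189% of all genes passed. With the block by place, AKAP8 passed in EPI, as given above. KHDRBS3 passed in MES with this block, with a log2 fold change of -1.08 (limma adjusted p = 0.01, and 0.11 without the block). There 353 of 9014 genes passed. ESRP1 was at 93 and 115 scaled reads in MES shAKAP8 cells, below its 3 controls, a log2 fold change of -0.95 ± 0.29 (SE, limma adjusted p = 0.081), and its part in the CD44 shares was not tested.

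Of 26 listed genes that make the ligand, bind or shed CD44, 17 were tested, and 2 rose and 2 fell between the control states, against 5.38% and 7.16% of all genes. VCAN, which codes for the hyaluronan-binding proteoglycan versican, and the integrin gene ITGA4 rose, with 0 to 1.03 and 61 to 67.9 scaled reads in EPI controls against 148 to 232 and 261 to 303 in MES controls. ANK3, a cytoskeletal adaptor gene, and the growth factor receptor gene FGFR2 fell, from 149 to 241 and 177 to 218 scaled reads to 15.7 to 37.9 and 10.8 to 41.8. The median log2 fold change of the list was -0.16, against 0.01 over all genes. No listed gene passed after knockdown in either state, where 0.189% (EPI) and 2.27% (MES) of all genes passed. With the block by place, SLC7A11, which codes for the light chain of the cystine/glutamate exchanger, passed in EPI, with 329, 210 and 467 scaled reads in controls and 800, 405 and 873 in shAKAP8 cells and a log2 fold change of 1.04 (limma adjusted p = 0.0046, and 0.28 without the block). The EPI ranges overlap, but each library was above the control at the same place in the list. With the same block in MES, SLC7A11 passed with a log2 fold change of 1.6 (limma adjusted p = 0.0049, and 0.055 without the block). The growth factor receptor gene EGFR passed there with -1 (limma adjusted p = 0.03, and 0.083 without the block). Over all genes 90 in EPI and 353 in MES of 9014 passed with the block.

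Other exons followed the CD44 pattern across the libraries. Over 1639 SE events with a PSI range of at least 0.3 and 20 junction reads per library on average, PSI over the 11 libraries was correlated with the share of reads that enter any variable exon from c5, as a description only, since the libraries fall into the 2 states and each PSI comes from the same libraries. This reference was chosen after the values were seen. Among the exons most like it were those in PCYT2 (r = 0.995), USO1 (r = 0.992) and SLK (r = 0.992). The 93 nt exon of SLK, a protein kinase gene, had a mean PSI of 51.1% in EPI controls and 50.6% in EPI shAKAP8 cells, and of 3.74% in MES controls and 2.11% in MES shAKAP8 cells. The most opposite exons were in ARHGEF11 (r = -0.996), PRC1 (r = -0.995), CTNND1 (r = -0.993), SCRIB (r = -0.992) and MLPH (r = -0.989). The event with the most reads for v8, between c5 and v9, ranged over only 3.6 percentage points, and no event reached r of 0.9 with it in either direction; the highest were those of SNX14 (r = 0.888) and FAM122B (r = -0.881).

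The deposited lists of AKAP8 eCLIP peaks, merged over replicates by the authors, held 24637 peaks in EPI and 30390 in MES. In the lists analysed here none overlapped CD44 on either strand. The peak nearest to the gene lay 240 kb away in EPI and 873 kb away in MES. The lists hold only called peaks, so lower binding cannot be read from them, nor the signal at any exon of CD44. The lists analysed here do not hold every AKAP8 peak that the study reports for this gene. The values therefore do not show that AKAP8 binding to CD44 is absent.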

How the data were processed

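RNA was measured by stranded paired-end poly(A) sequencing and AKAP8 binding by eCLIP. The authors aligned reads with STAR to GRCh37 and quantified splicing with rMATS; the tables they deposited list inclusion and skipping junction read counts per library for 5 event types and 3 comparisons. Libraries are named by their place in these lists, which carry no replicate numbers. The authors' p-values, FDR and inclusion differences in these tables, and their DESeq2 gene table of fold changes, were not used. The EPI control counts were identical between tables, and so were the 2 MES controls shared by 2 tables; these were counted once. The deposited peak lists give −log10 p-values and log2 enrichment of IP over input by the authors.

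PSI was computed from counts divided by the effective lengths in the tables (198 and 99 for most events, 188 for v9). Events averaging 20 or more junction reads a library entered a quasi-binomial likelihood-ratio F test, with the dispersion moderated by limma 3.58.1 (squeezeVar, robust trend) in R 4.3.3 and Benjamini-Hochberg adjustment per event type and comparison. Single junctions were solved from SE events of exons of at least 99 nt by non-negative least squares (SciPy); for v2 in MES shAKAP8 libraries the sum of its 2 junctions was halved. Shares were tested by exact permutation over libraries without pairing them by place, a choice made after the reads were seen. Gene levels were summed SE junction reads, scaled by median of ratios, as log2(value + 1) in limma over all 4 groups, with a value of at least 10 in 2 libraries. The tests were tested on simulated data. Exon names v2 to v10 follow the order of exons in the longest annotated CD44 transcript. Every variable exon is named; of the gene lists, ESRP1, ESRP2, HNRNPM and AKAP8 are named always and others only past the cutoffs. CD44, the lists and the tests were chosen with earlier results of these data known. Some exons that the likeness rule picked are not reported here.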

Additional observations from a re-analysis of the deposited data

How the results depend on the processing

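The tables carry no replicate numbers, so a replicate block by place in the list was added after seeing the data. Deviations of gene levels from the group mean correlated between EPI control and EPI shAKAP8 libraries of the same place (0.43, 0.73 and 0.68 over 7370 genes, each above those with other places), but less between EPI and MES controls (0.06, 0.34 and 0.4) and between MES controls and MES shAKAP8 cells (0.22 and 0.06). With this block the CD44 SE events called were 2 after knockdown in EPI, the same events as without it, 14 between the control states, each among the 22, 0 in MES after knockdown and 0 between the states in knockdown cells, where over all genes 0 of 31496 events were called, against 405 without it. Genes called after knockdown were 90 in EPI and 353 in MES with the block, against 17 and 205. The number of CD44 SE events called between the control states stayed at 16 to 22 in the other 12 alternatives (19 to 21 when a library was left out), each lower in MES. In knockdown cells it was 12, and 3 by limma on the logit of PSI and 7 to 10 when a library was left out (7 without either MES shAKAP8 library). The 2 calls after knockdown in EPI became 0 by limma on the logit of PSI and 0 with ∆PSI of at least 0.2, and ran from 0 (without the first EPI control) to 3 when a library was left out, with 1 without the second or the last EPI shAKAP8 library. The call in MES became 0 by limma on the logit of PSI and 0 without any of the 4 libraries, and was kept as 1 with the last MES control added, an alternative chosen after seeing the data. The count of events with a different knockdown effect between the states was 0 in all 18 alternatives. The fall of CD44 junction reads between the states was -1.34 to -1.55 (log2) when a library was left out and -0.53, not called, with events outside the variable region. After knockdown it was -0.21 to 0.13 in EPI and -0.34 to -0.12 in MES when a library was left out. The cause of these shifts was not tested. PSI differences of the events with the most reads stayed within the spread of the libraries in all 198 values with a library left out, and moved beyond it in 17 of 20 values when events between c5 and c16 were used, 28 of 36 when all events of an exon were summed and 34 of 36 over all junctions. A log2 enrichment of at least 3 left 20655 and 21545 eCLIP peaks in the lists analysed here. As the full lists held no peak in CD44, this cutoff could not change that result. Ignoring strand and measuring the distance to the nearest peak, added after seeing the data, gave no peak of these lists within 240 kb. Depth limits values of the variable exons in MES, for example where 173 to 376 reads left v3.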
